A study of Mus musculus with 2 samples.

Results

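Divergent promoters are places where a gene on the minus strand and a gene on the plus strand start back to back and run away from each other. With 1 transcription start site (TSS) taken per gene from the deposited table, a region was counted as divergent when its centre lay within 1000 bp of both TSSs of such a pair and the minus-strand TSS lay below the plus-strand TSS by at most 1000 bp. This gave 591 of the 69549 distinct open chromatin regions, at 524 pairs formed by 1044 genes. They were compared with the 13796 other promoter regions, whose centre lies within 1000 bp of the closest TSS. These are not divergent by the TSSs of the deposited table, but some may be so by another gene annotation. Chromatin accessibility was measured by ATAC-seq, in which the Tn5 transposase cuts open DNA and attaches sequencing adaptors, so that more reads mark more open chromatin. One library came from livers of *Mettl3* flox/flox mice, in which exons 2 and 3 of *Mettl3*, the gene of the catalytic subunit of the m6A RNA methyltransferase, are flanked by loxP sites. The other came from *Mettl3*-HKO mice, which carry the same floxed alleles and 1 copy of Alb-Cre, a transgene in which the albumin promoter drives Cre recombinase in hepatocytes. The deletion is directed at hepatocytes, and whether endothelial cells, macrophages and other liver cells keep *Mettl3* was not checked here. All mice were C57BL/6, 8 weeks old and fed normal chow, and each library pooled the livers of 4 mice. Each group is thus 1 library of bulk tissue with no replicate, and fewer cells of a type and less accessibility per cell cannot be told apart.

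A divergent promoter has a core promoter for each gene, facing outwards, and a stretch free of nucleosomes between them that serves both. In mammals such pairs are common and often lie in CpG islands, and many of their genes have housekeeping roles, in mitochondria, DNA repair and RNA processing for example. Replication-dependent histone genes, which are transcribed in S phase, are also frequently arranged head to head. The reads over the shared stretch cannot be assigned to either gene, so each value given here belongs to the region and not to a gene.

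The stretch between the TSSs is the sequence that the members share by construction. It is printed for 10 pairs that the results turn on, read from RefSeq promoter sequences on GRCm38.p6. It runs on the plus strand from the minus-strand TSS to the plus-strand TSS, both as given by the deposited table. The whole stretch could be read for 312 of the 524 pairs. RefSeq places the TSSs of *Mrps12*/*Sars2* 147 bp apart, and those of *Surf1*/*Surf2* so that the genes overlap. The 8 motifs searched, on both strands, were the CCAAT box (CCAAT), the GC box (GGGCGG), the ETS site (CCGGAA), the YY1 site (AAGATGGCG), the CRE (TGACGTCA), the E-box (CACGTG), the TATA box (TATAAA) and the NRF1 site. Capitals mark each match on either strand, and the marked stretches do not overlap. *Abcg5*/*Abcg8* stands for the sterol genes.
*Abcg5*/*Abcg8* (chr17:84683011-84683121): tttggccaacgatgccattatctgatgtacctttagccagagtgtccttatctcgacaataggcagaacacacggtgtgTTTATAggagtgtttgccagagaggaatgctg
*Insig2* is shown as a region that was not called.
*Insig2*/*ENSMUSG00000104253* (chr1:121328024-121328092): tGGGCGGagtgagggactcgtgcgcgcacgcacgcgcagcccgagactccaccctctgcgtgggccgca
Pairs with mitochondrial or DNA repair genes follow.
*Surf1*/*Surf2* (chr2:26916530-26916669): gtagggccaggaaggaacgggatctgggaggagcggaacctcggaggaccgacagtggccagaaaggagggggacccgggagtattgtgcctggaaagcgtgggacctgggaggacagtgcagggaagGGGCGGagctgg
*Mrps12*/*Sars2* (chr7:28741770-28742002): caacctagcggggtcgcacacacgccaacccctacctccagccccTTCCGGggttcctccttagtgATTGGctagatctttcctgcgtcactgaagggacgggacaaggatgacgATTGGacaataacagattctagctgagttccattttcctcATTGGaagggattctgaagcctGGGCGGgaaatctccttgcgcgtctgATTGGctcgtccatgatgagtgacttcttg
*Mrpl46*/*Mrps11* (chr7:78783089-78783119): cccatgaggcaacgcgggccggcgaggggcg
*Ears2*/*Ubfd1* (chr7:122067011-122067175): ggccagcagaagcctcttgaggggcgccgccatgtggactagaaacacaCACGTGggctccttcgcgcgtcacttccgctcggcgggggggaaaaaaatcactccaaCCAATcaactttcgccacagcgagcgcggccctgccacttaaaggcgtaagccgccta
*Ndufaf2*/*Ercc8* (chr13:108158623-108158738): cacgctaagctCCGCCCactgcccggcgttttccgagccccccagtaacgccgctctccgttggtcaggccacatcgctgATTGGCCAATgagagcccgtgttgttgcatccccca
*Saxo2*/*Efl1* is among the lowest ratios, *Dnajb4*/*Fubp1* stands for the chaperones, and *Hist1h2bl*/*Hist1h2ai* was called higher.
*Saxo2*/*Efl1* (chr7:82648523-82648641): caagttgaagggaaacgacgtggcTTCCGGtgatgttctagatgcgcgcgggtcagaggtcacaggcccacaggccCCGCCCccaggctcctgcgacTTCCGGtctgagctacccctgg
*Dnajb4*/*Fubp1* (chr3:152210302-152210422): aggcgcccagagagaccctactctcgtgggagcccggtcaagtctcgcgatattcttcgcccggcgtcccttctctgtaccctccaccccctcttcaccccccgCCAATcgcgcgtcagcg
*Hist1h2bl*/*Hist1h2ai* (chr13:21716143-21716422): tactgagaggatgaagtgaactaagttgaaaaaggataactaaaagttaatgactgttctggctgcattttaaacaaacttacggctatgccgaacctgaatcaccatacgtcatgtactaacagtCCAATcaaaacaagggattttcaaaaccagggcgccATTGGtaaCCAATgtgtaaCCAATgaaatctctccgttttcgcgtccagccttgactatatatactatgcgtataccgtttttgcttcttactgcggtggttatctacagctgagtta

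These stretches differed widely in base composition. The *Mrpl46*/*Mrps11* stretch of 31 bp was 80.6% G or C, whereas the *Abcg5*/*Abcg8* stretch of 111 bp was 45.9% and held the only TATA box among the 10. The histone stretch of 280 bp was the poorest in G and C, at 40%, and held 4 CCAAT boxes. *Mrps12*/*Sars2* also held 4 CCAAT boxes, next to 1 GC box and 1 ETS site, within 233 bp. In *Saxo2*/*Efl1*, 2 ETS sites and 1 GC box were found within 119 bp. No match was present between the TSSs of *Mrpl46*/*Mrps11*, which says only that these letters are not in that window.

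Promoter windows of RefSeq, from 250 bases before to 50 after the gene start, were matched to 399 of the 487 genes (81.9%) in pairs with a symbol for both genes. Their median content of G and C was 63.3%, against 52.7% over all 32817 windows of the table, and their median ratio of observed to expected CpG was 0.866 against 0.383. A GC box was present in 73.2% of the windows of divergent genes, against 35.6% of all windows. The ETS site was present in 42.4% against 14.9%, the CRE in 6.77% against 1.79%, and the YY1 site in 4.51% against 1.4%. The TATA box was rarer, in 3.76% against 13.6%. The CCAAT box differed little, with 42.1% against 37.4%, as did the E-box, with 10.8% against 7.15%, and the NRF1 site, with 1% against 0.966%. All windows include genes with no open region in these livers. Windows were found for 75.6% of the named genes at other promoter regions, below the 80% set as the least for a comparison, so the comparison of the promoter classes is void and their values are a description. These 7636 windows lay much closer to the divergent ones than all windows did, with a median of 61.3% G and C and a CpG ratio of 0.772. A GC box was in 66.9% of them, an ETS site in 27.9%, a CRE in 3.21%, a YY1 site in 3.17%, a CCAAT box in 38.8%, an E-box in 10.5%, a TATA box in 7.14% and an NRF1 site in 2.07%. Nothing in these shares was shown to be particular to divergent promoters.

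Divergent promoter regions were more open than other promoter regions in each library. In RPM, the counts plus 1 read scaled to a common library size, the median region stood at 13 for *Mettl3* flox/flox and at 8.08 for *Mettl3*-HKO, against 6.8 and 4.46 at other promoter regions. The median *Mettl3* flox/flox signal was thus 1.92 times that of other promoter regions. Read counts of the 591 regions ranged from 6 to 4641 for *Mettl3* flox/flox and from 12 to 3033 for *Mettl3*-HKO. Regions of the divergent class were also longer, with a median of 921 bp against 756 bp. Per base of region, as fold enrichment over the whole genome, the medians were 38.2 and 24.7 for divergent and 25.3 and 16.5 for other promoter regions. Other promoter regions near 2 or more TSSs, without the divergent geometry, were at a median *Mettl3* flox/flox signal of 8.27 RPM (n = 516). Within each of 4 classes of length the divergent regions had more reads per base. For *Mettl3* flox/flox, the medians from the shortest to the longest class were 17, 36.5, 45.7 and 51.4, against 12.2, 28.7, 35.9 and 40.7 at other promoter regions. These are values of 1 library each, and no test was made over regions, which are not replicates.

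**Figure D1:**
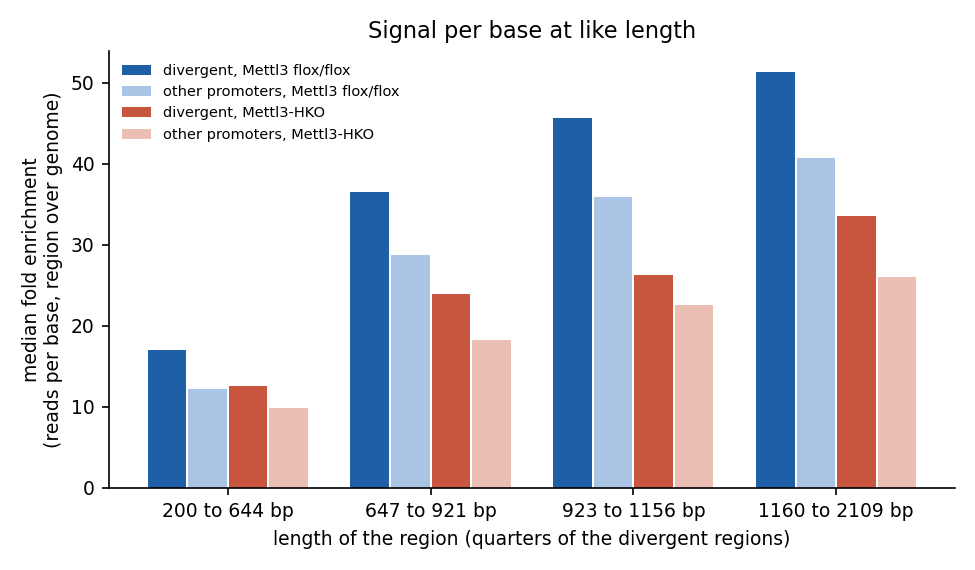
Median fold enrichment, the reads per base of a region over the reads per base of the genome, in 4 classes of region length, for divergent (dark bars) and other promoter regions (light bars) in the *Mettl3* flox/flox (blue) and *Mettl3*-HKO (red) libraries. In each class the dark bar stands above the light bar of its library, from 17 against 12.2 in the shortest class to 51.4 against 40.7 in the longest for *Mettl3* flox/flox.

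A peak was called in both libraries at 534 of the 591 regions (90.4%), against 83% of other promoter regions. It was called in *Mettl3* flox/flox alone at 28 regions and in *Mettl3*-HKO alone at 29. The regions with a peak in 1 library were weak. Their median was 1.74 RPM in *Mettl3* flox/flox for those called there alone, and 0.879 RPM in *Mettl3*-HKO for those called there alone.

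On the scale of total reads the divergent promoters had less signal in the *Mettl3*-HKO library, and so had the other promoters. The log2 ratio of the RPM values, with *Mettl3*-HKO over *Mettl3* flox/flox, had a median of −0.576 over the 591 regions, with quartiles of −0.803 and −0.314. Over the other promoter regions it was −0.563, with quartiles of −0.853 and −0.245, and over all 69549 regions it was −0.377. The medians of the promoter classes differed by −0.013. Divergent promoters held 0.934% of all *Mettl3* flox/flox reads and 0.613% of all *Mettl3*-HKO reads, and other promoter regions held 14.5% and 9.51%. The spread of the ratios was narrower at divergent promoters, with an interquartile range of 0.489 against 0.607. Ratios above 0 were found at 10.7% of divergent and 16.3% of other promoter regions.

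Each region was also compared between the libraries by an exact binomial test of its counts, adjusted over all regions, which covers counting error only and compares the libraries, not the genotypes. A region is called lower or higher in *Mettl3*-HKO below an adjusted p of 0.05. Of the 591 divergent regions, 465 (78.7%) were called lower and 25 (4.23%) higher, and the rest were not called. The same test called 47.7% of all regions lower and 20.3% higher, and 71.4% of other promoter regions lower and 7.83% higher. A region with more counts has a smaller counting error, and the median *Mettl3* flox/flox count was 687 at divergent and 358 at other promoter regions. By size alone, 73 divergent regions (12.4%) were at least 2-fold lower and 11 (1.86%) were at least 2-fold higher. Changes of 2-fold were found at 18.3% of all regions downwards and 13.2% upwards, and at 16.5% and 4.17% of other promoter regions.

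The direction depends on the scale. Relative to the median of all regions, at −0.377, the median divergent region was at −0.199, and 288 regions (48.7%) were called lower and 90 (15.2%) higher, against 29.2% and 31.4% of all regions. Relative to the median of the strongest 10% of promoter regions, which was at −0.646, it was at 0.070, and 134 (22.7%) were called lower and 207 (35%) higher, against 16.6% and 43.3% of all regions. Of other promoter regions, 44% were called lower and 16.6% higher on the first of these scales, and 22% and 33.7% on the second. Calls of groups of genes are therefore given on these scales as well, and their shares are to be read against those of the class. Centring moves every region by the same amount, so the difference between the promoter classes is −0.013 on each scale by construction.

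At like signal the classes also lay close together. The divergent regions were split into 10 bins of mean RPM and other promoter regions were taken from the same ranges. The divergent median was higher in 9 of the 10 bins, by up to 0.134, with a difference of −0.033 in the other and a weighted mean difference of 0.031, opposite in sign to the difference over all regions. The excess of 0.134 belonged to the weakest bin, below 1.51 RPM. In the upper 8 bins the divergent medians lay between −0.570 and −0.677. The interquartile range was narrower at divergent promoters in 7 of the 10 bins. At like signal the share called lower was smaller at divergent promoters in each bin except the fifth, with 94.9% against 93%. It went from 15% against 26.1% in the weakest bin to 96.6% against 96.7% in the strongest. The larger share called lower over the whole divergent class was thus not found at like signal.

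**Figure D2:**
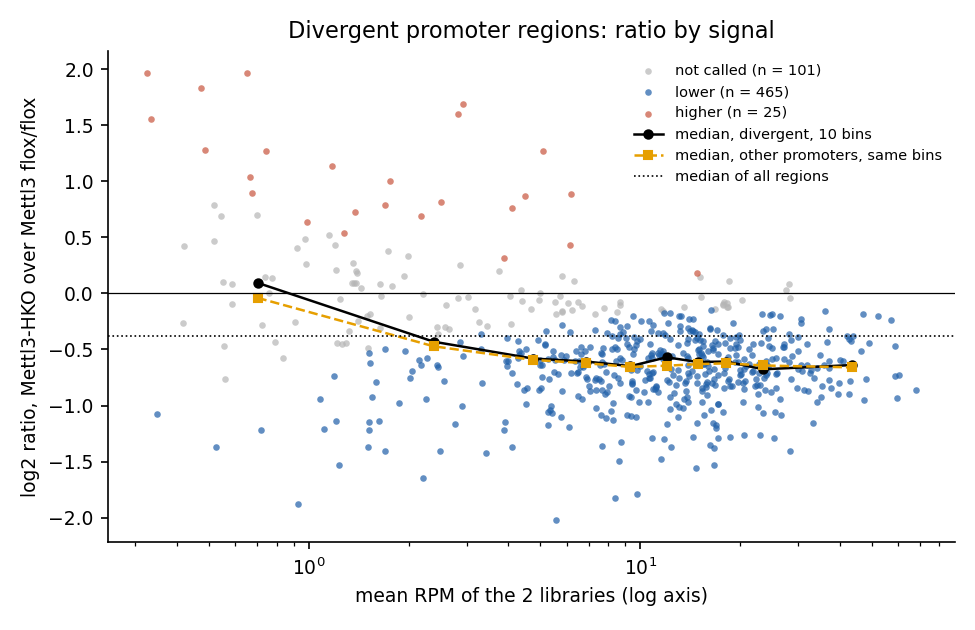
The *Mettl3*-HKO to *Mettl3* flox/flox log2 ratio of each divergent promoter region (points, coloured by the exact binomial call) against its mean RPM on a log axis. The median of divergent regions in 10 bins (black line) runs close to that of other promoter regions in the same bins (orange dashed line), and most of the 25 regions called higher lie at low signal. The dotted line is the median of all regions.

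Markers of other liver cells moved between the libraries in the same comparison. Among 8 sinusoidal endothelial markers on a list, 7 had a promoter region, with log2 ratios from 0.14 to 1.78 and a median of 1.60, and 6 were called higher. All 8 hepatocyte markers had one, with a median of −0.65 and a range of −1.32 to 0.02, and 7 were called lower, which puts them close to the strongest promoters at −0.646. Of 8 macrophage markers 2 had a promoter region, at 0.53 and 2.05 with 1 called higher, and of 8 stellate markers 2, at −2.51 and 0.08 with 1 called lower. The 5 cholangiocyte markers with one ran from −0.52 to 1.19 around a median of −0.18, with 1 called higher and 1 lower, and 0 of 8 lymphocyte markers had one. The direction thus differed among the lists. None of these markers belongs to a divergent pair, and the part of cell composition in the ratios of the divergent promoters was not tested. Of *Mettl3* itself, the promoter region on chromosome 14 had 566 counts in *Mettl3* flox/flox and 392 in *Mettl3*-HKO (log2 ratio −0.66). Whether a region covers the deleted exons was not determined, so this does not check the deletion.

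The distance between the TSSs had a median of 174 bp, with quartiles of 103 and 336 bp and a range of 1 to 985 bp. A region covered both TSSs at 457 members (77.3%), and 227 (38.4%) were centred between them. At TSS distances of 1 to 100 bp, 86% of 143 regions covered both start sites, and above 500 bp 35.4% of 79 did. The median log2 ratio went from −0.609 at 1 to 100 bp, through −0.591, −0.513 and −0.551, to −0.481 above 500 bp. These differences are small against the interquartile range within a bin, which was 0.445 to 0.567. Of the pairs, 454 had 1 region, 69 had 2 and 1 had 3. In the pairs with 2 regions the stronger had a median of 8.71 mean RPM and the weaker 1.64, with median log2 ratios of −0.45 and −0.44. Both regions were called lower at 28 of these 69 pairs, and the calls were opposite at 1.

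Members near the limits of the rule were weaker than the class as a whole. The 11 regions at TSSs 901 to 1000 bp apart had a median of 7.21 RPM in *Mettl3* flox/flox and a median log2 ratio of −0.59, and the 15 regions just outside the limit, at 1001 to 1100 bp, had 5.34 RPM and −0.65. The 18 regions centred 901 to 1000 bp from the farther TSS had 2.68 RPM and −0.50, and the 26 just outside had 3.52 RPM and −0.51.

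By RefSeq biotype, 266 regions lay between 2 protein-coding genes, and their median log2 ratio was −0.600. Of these, 225 (84.6%) were called lower and 5 (1.88%) higher, beside 78.7% and 4.23% of the class. Another 118 lay between a protein-coding gene and a noncoding RNA gene, with a median of −0.637, of which 102 (86.4%) were called lower and 4 (3.39%) higher. At 197 regions the partner of a protein-coding gene had an Ensembl identifier but no biotype in the reference. There the median was −0.500, 132 (67%) were called lower and 15 (7.61%) higher, and 18.3% of ratios were above 0. Relative to all regions the 3 medians were −0.22, −0.26 and −0.12, with 142 lower and 30 higher in the first group, 69 and 14 in the second, and 74 and 45 in the third. Relative to the strongest promoters the medians were 0.05, 0.01 and 0.15. On the latter scale 85 regions of the first group were called higher and 65 lower, 36 and 28 of the second, and 81 and 39 of the third. The last group had a lower signal, with 10.8 RPM in *Mettl3* flox/flox against 13.4 and 14.6 RPM in the first and second.

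**Figure D3:**
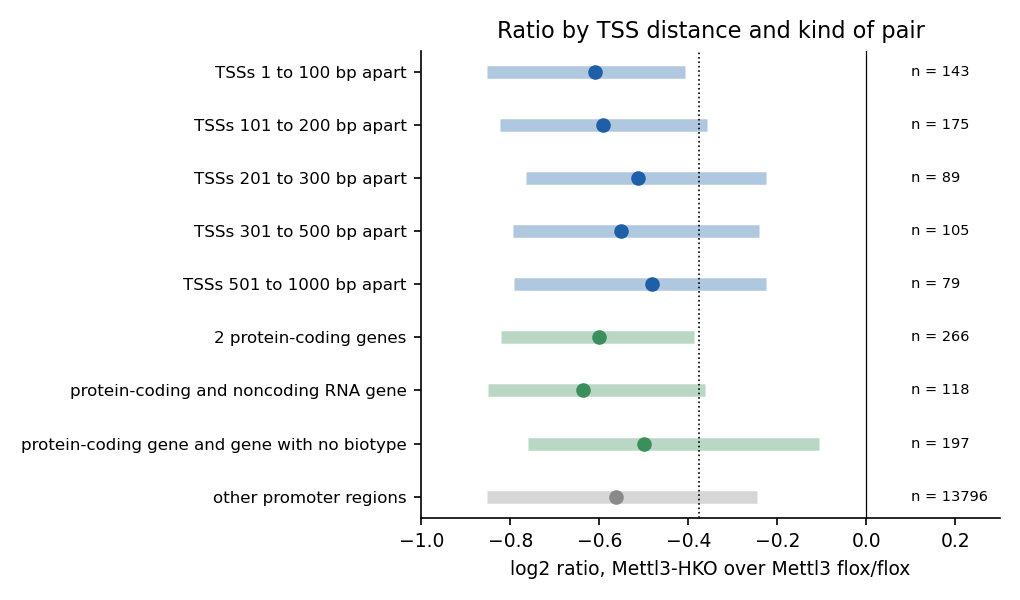
Median (point) and quartiles (bar) of the *Mettl3*-HKO to *Mettl3* flox/flox log2 ratio for divergent promoter regions by TSS distance (blue) and kind of pair (green), and for other promoter regions (grey). The bars overlap throughout, and the medians run from −0.481 to −0.637. The dotted line is the median of all regions.

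Peak summits, given by the authors for the merged regions without saying which library each came from, numbered 2059 at divergent promoters, or 3.48 per region, against 3.07 at other promoter regions. Of these, 43.3% lay between the paired TSSs, 28.6% in the direction of the minus-strand gene and 28.1% in that of the plus-strand gene. The share between the TSSs went from 25.6% at distances of 1 to 100 bp to 62.9% above 500 bp, where the space between them is also larger. Within 250 bp of the midpoint lay 52.3% of summits. The 50 bp on either side of the midpoint held 13.3% and 12.4%. At other promoters, read in the direction of the gene, the 50 bp upstream of the TSS held 14.8% and the 50 bp downstream 7.5%, while all summits upstream made up 52.9% and all downstream 46.8%. The balance about a midpoint follows from centring between genes that face outwards, so it is not set against the profile about a single TSS.

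**Figure D4:**
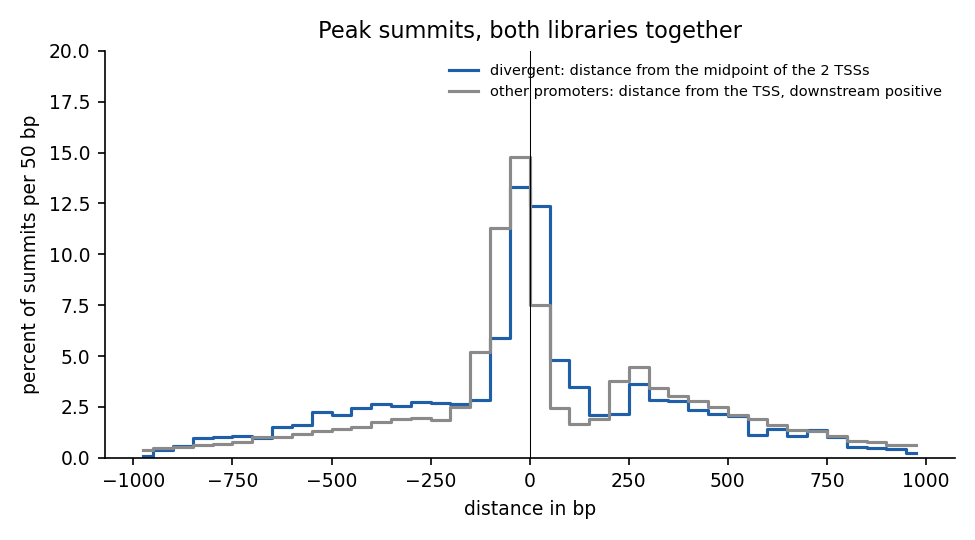
Share of peak summits in 50 bp steps, by distance from the midpoint of the paired TSSs at divergent promoters (blue) and by distance from the TSS, positive downstream, at other promoters (grey). The blue profile has 13.3% and 12.4% of summits on the left and right of its centre, and the grey profile has 14.8% upstream and 7.5% downstream.

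Lipid and sterol genes, a list that also takes fatty acid genes, apolipoproteins and genes with a Cyp symbol, were met at 5 divergent regions. Of these 5 regions, 4 (80%) were called lower, against 78.7% of all divergent regions. Their median log2 ratio was −0.795, beside −0.697 at 120 other promoter regions of such genes, or −0.42 relative to all regions and −0.15 relative to the strongest promoters, with 4 called lower and 1 higher on the former scale and 2 lower and 1 higher on the latter. *Abcg5* and *Abcg8* encode the partner proteins of the transporter that exports sterols into bile, and their TSSs lie 110 bp apart on chromosome 17. The region at chr17:84682734-84683778 had 898 counts in *Mettl3* flox/flox and 635 in *Mettl3*-HKO, a log2 ratio of −0.64 with a 95% counting interval of −0.78 to −0.49, which became 0.01 relative to the strongest promoters. *Nadsyn1*/*Dhcr7*, which joins NAD synthetase and the last enzyme of cholesterol synthesis, had 915 and 579 counts (log2 ratio −0.80, interval −0.95 to −0.64), and was no longer called relative to the strongest promoters (−0.15). *Slc25a27*/*Cyp39a1*, with an oxysterol hydroxylase of bile acid synthesis, had 1083 and 532 counts (−1.16, interval −1.31 to −1.01). This was the lowest of the list, and it was called on all 3 scales. *Mmab*/*Mvk*, which holds mevalonate kinase, had 475 and 466 counts and was not called (−0.16).

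Of 12 liver genes with an unnamed partner, picked after their values were seen, 11 were called lower and *Insig2* was not called, beside 78.7% of the class called lower. Relative to all regions 7 were called lower and 1 higher, and relative to the strongest promoters 3 lower and 2 higher. *Insig1* and *Insig2*, which retain the sterol sensor SCAP in the endoplasmic reticulum, had different ratios. *Insig1* had 2189 and 1645 counts (−0.55, interval −0.64 to −0.46, called lower, and 0.10 and not called relative to the strongest promoters). *Insig2* had 1439 and 1612 counts (0.03, interval −0.08 to 0.13, not called, and called higher on both other scales). *Nfe2l2*, which encodes the transcription factor NRF2 of the oxidative stress response, had 3889 and 2564 counts (−0.74). It was called lower on all 3 scales.

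Regions at genes of mitochondrial translation and protein import numbered 12, and 11 (91.7%) were called lower with 0 higher by the exact binomial test, beside 78.7% of all divergent regions lower. Their median log2 ratio was −0.768, or −0.39 relative to all regions and −0.12 relative to the strongest promoters, with 89 other promoter regions of such genes at a median of −0.641. Relative to all regions 7 were called lower and 2 higher, and on the scale of the strongest promoters 4 lower and 4 higher, so the direction of the group depends on the scale. *Mrpl46*/*Mrps11* joins a protein of the large and a protein of the small mitochondrial ribosomal subunit. It had 581 counts in *Mettl3* flox/flox and 248 in *Mettl3*-HKO (−1.36, interval −1.58 to −1.15). *Ears2*/*Ubfd1*, with the mitochondrial glutamyl-tRNA synthetase, had 1244 and 594 counts (−1.20, interval −1.35 to −1.06). *Mrpl40*/*Hira*, whose plus-strand gene encodes a chaperone of histone H3.3, had 1217 and 743 counts (−0.85, interval −0.98 to −0.71). At the other end, *Mrps18b*/*Ppp1r10* had 1408 and 1361 counts (−0.18), was called lower on the scale of total reads, and lay at 0.19 relative to all regions. *Mrps12*/*Sars2*, a ribosomal protein and the mitochondrial seryl-tRNA synthetase, had 471 and 404 counts (−0.36, interval −0.55 to −0.16), and 0.02 relative to all regions.

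Respiratory chain genes had 7 regions, of which 6 (85.7%, beside 78.7% of the class) were called lower and 0 higher by the exact binomial test, at a median of −0.641, beside −0.643 at 66 other promoter regions of such genes. This was −0.26 relative to all regions, with 5 called lower and 0 higher, and 0.00 relative to the strongest promoters, with 1 called each way. *Atp5c1*/*Kin*, with the gamma subunit of ATP synthase, had 1323 counts in *Mettl3* flox/flox and 839 in *Mettl3*-HKO (−0.79). *Tatdn1*/*Ndufb9*, with a subunit of complex I, had 634 and 553 counts (−0.33), or 0.04 relative to all regions. *Surf1*/*Surf2*, with an assembly factor of cytochrome c oxidase, is a known pair that the list did not take, and 0 combinations of the RefSeq TSSs of its genes met the rule. Its region had 448 and 261 counts (−0.91, interval −1.14 to −0.69).

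The list for DNA repair and replication took 13 regions, of which 9 (69.2%, beside 78.7% of the class) were called lower, at a median of −0.502, beside −0.511 at 85 other promoter regions of such genes, or −0.12 relative to all regions and 0.14 relative to the strongest promoters. Relative to all regions 4 were called lower and 2 higher, and relative to the strongest promoters the balance turned, with 2 lower and 5 higher. The symbol rule of the list also admitted the RNA polymerase genes *Polr2b*, *Polr1c* and *Polr1d*. The median and the calls of the group include their regions, so they are not values of repair and replication genes alone. *Ndufaf2*/*Ercc8* joins an assembly factor of complex I with a gene of transcription-coupled repair. It had 1287 counts in *Mettl3* flox/flox and 577 in *Mettl3*-HKO (−1.29, interval −1.44 to −1.15). *Brca1*/*Nbr1*, a gene of homologous recombination and an autophagy receptor, had 1029 and 794 counts (−0.51), which was −0.13 and no longer called relative to all regions. *Noa1*/*Polr2b*, with the second largest subunit of RNA polymerase II, had 1426 and 970 counts (−0.69). *Rad18*, a ubiquitin ligase of damage tolerance with an unnamed partner, had 290 and 354 counts (0.15, not called).

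RNA processing genes had 20 regions, and 18 (90%, beside 78.7% of the class) were called lower, with ratios between −0.86 and −0.21. Their median was −0.504, against −0.600 at 81 other promoter regions of such genes, and it was −0.13 relative to all regions and 0.14 relative to the strongest promoters. The calls turned with the scale, from 7 lower and 0 higher relative to all regions to 2 lower and 8 higher relative to the strongest promoters. *Hnrnpdl*/*Enoph1* had 1900 counts in *Mettl3* flox/flox and 1229 in *Mettl3*-HKO (−0.76). *Hnrnph3*/*Pbld2* had 1795 and 1508 counts (−0.39), or −0.01 relative to all regions.

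Regions at chaperone genes lay above the median of the divergent promoters. All 5 had ratios between −0.37 and −0.19, with a median of −0.297 against −0.529 at 52 other promoter regions of chaperone genes. On the scale of total reads 4 of the 5 (80%) were called lower, beside 78.7% of the class. The group median was 0.08 relative to all regions, with 1 called higher and 0 lower, beside 15.2% and 48.7% of the class. Relative to the strongest promoters it was 0.35, with 4 called higher and 0 lower, beside 35% and 22.7% of the class. *Dnajb4*/*Fubp1*, with an HSP40 co-chaperone, had 2642 counts in *Mettl3* flox/flox and 2549 in *Mettl3*-HKO (−0.19, interval −0.27 to −0.11). *Tbccd1*/*Dnajb11*, with an HSP40 of the endoplasmic reticulum, had 823 and 773 counts (−0.23). *Hspa1a*/*Hspa1l*, heat shock proteins of the HSP70 family, had 141 and 126 counts (−0.30, not called).

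On the scale of total reads, the replication-dependent histone genes had ratios above 0 where most of the class was below. All 6 regions, at 4 pairs on chromosome 13, had ratios above 0, from 0.01 to 0.79 with a median of 0.161, and 2 were called higher. They were also above 0 on the other scales, at 0.54 relative to all regions and 0.81 relative to the strongest promoters, with all 6 called higher on each, against 15.2% and 35% of the class. Relative to the strongest promoters 345 of the 591 divergent regions were above 0 too, so on that scale the direction is shared with the class. The 37 other promoter regions of these genes had a median of 0.157 and were no head-to-head pairs by the rule. At *Hist1h2bl*/*Hist1h2ai*, genes of histones H2B and H2A, the region at chr13:21716043-21716705 had 160 counts (3.05 RPM) in *Mettl3* flox/flox and 299 (5.17 RPM) in *Mettl3*-HKO. Its log2 ratio was 0.76 with an interval of 0.48 to 1.05 (exact binomial test, adjusted p = 1.44e-07). *Hist1h3b* with an unnamed partner had 65 and 124 counts at its region called higher (0.79), and 58 and 74 at its other (0.21, not called). *Hist1h2bh*/*Hist1h3f* had 319 and 379 counts (0.11, not called). *Hist1h4h* had 942 and 1119 counts at its stronger region (0.11, not called) and 262 and 289 at its weaker (0.01, not called). Histone genes are near-identical copies, and how reads were shared among them is uncertain.

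Proteasome and ubiquitin genes had 5 regions, of which 3 (60%) were called lower and 1 (20%) higher, beside 78.7% and 4.23% of the class. Their median was −0.570, beside −0.564 at 72 other promoter regions of such genes. It was −0.19 relative to all regions, with 3 called lower and 2 higher, beside 48.7% and 15.2% of the class. Relative to the strongest promoters it was 0.08, with 1 lower and 2 higher, beside 22.7% and 35% of the class. *Psma7*/*Ss18l1*, with a core subunit of the proteasome, had 742 counts in *Mettl3* flox/flox and 549 in *Mettl3*-HKO (−0.57), and *Cep76*/*Psmg2*, with a proteasome assembly chaperone, had 662 and 289 (−1.33). *Psmb9*/*Tap1* joins a subunit of the immunoproteasome with the transporter that loads peptides for antigen presentation. Its main region had 475 and 487 counts (−0.10, not called) and a weaker region beside it had 22 and 60 counts (1.27, interval 0.59 to 2.09, called higher) with a peak in *Mettl3*-HKO alone.

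Zinc finger genes had 12 regions, including *Zfpl1*, which the symbol rule admitted, with 8 called lower (66.7%, beside 78.7% of the class) and 1 higher and a median of −0.504, beside −0.614 at 295 other promoter regions of such genes, or −0.13 relative to all regions and 0.14 relative to the strongest promoters. Relative to all regions 4 were called lower and 2 higher, and relative to the strongest promoters 0 lower and 3 higher. *Zfp319*/*Usb1* had 1012 counts in *Mettl3* flox/flox and 1025 in *Mettl3*-HKO (−0.12, not called), and *Zfp944*/*Zfp758* had 514 and 348 (−0.70, called lower). Cell cycle genes had 4 regions at 2 pairs, of which 2 (50%) were called lower, beside 78.7% of the class. Both pairs also belong to other lists, *Cdc26*/*Prpf4* to RNA processing and *Zfpl1*/*Cdca5* to zinc finger genes. The median of the 4 regions was −0.250, beside −0.475 at 74 other promoter regions of such genes. The direction of this group turned with the scale. Relative to all regions the median was 0.13 with 0 called either way, beside 48.7% of the class lower and 15.2% higher. Relative to the strongest promoters it was 0.40 with 3 called higher and 0 lower, beside 35% and 22.7% of the class. *Cdc26*/*Prpf4*, with a subunit of the anaphase-promoting complex, had 636 and 573 counts at the stronger of its regions (−0.29, called lower), and *Zfpl1*/*Cdca5* had 254 and 183 (−0.61, called lower, and −0.23 and no longer called relative to all regions). Of the cytosolic ribosomal proteins *Lrsam1*/*Rpl12* was the only member, with 362 and 272 counts (−0.55, called lower). It was no longer called relative to all regions (−0.17) and was at 0.10 relative to the strongest promoters. Among genes of m6A itself, *Fto*, an m6A demethylase, shares a promoter with the ciliary gene *Rpgrip1l*, and this region had 678 and 514 counts (−0.53, called lower). It lay at −0.16 relative to all regions and was then no longer called.

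Among pairs with symbols for both genes, the 5 strongest promoters in *Mettl3* flox/flox were all called lower on the scale of total reads, as were 96.6% of the divergent and 96.7% of the other promoter regions in the strongest of the 10 bins of mean RPM. Regions with an unnamed partner, such as that of *Nfe2l2*, rank between them. *Mkks*/*Slx4ip* had 4641 counts in *Mettl3* flox/flox and 2809 in *Mettl3*-HKO (−0.86), and *Aasdhppt*/*Kbtbd3* had 3967 and 2631 (−0.73). *Phtf2*/*Tmem60* had 2717 and 1604 counts (−0.90). *Cep57*/*Fam76b*, with a centrosomal gene, had 3602 and 2866 counts (−0.47), and *Cryzl1*/*Itsn1*, with an endocytic scaffold gene, had 3264 and 3033 (−0.24). Relative to the strongest promoters these last regions turned to 0.18 and 0.40, and *Cryzl1*/*Itsn1* was at 0.14 relative to all regions.

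Among members that rank in the upper 50% of all promoters by mean RPM and have symbols for both genes, the lowest ratio was that of *Gm9955*/*Fhod3*, with 799 counts in *Mettl3* flox/flox and 254 in *Mettl3*-HKO (−1.79, interval −2.00 to −1.58). *Fhod3* encodes a formin that assembles actin. *4930558K02Rik*/*Pigc*, with an enzyme of GPI anchor synthesis, had 897 and 353 counts (−1.48). *Saxo2*/*Efl1*, with a GTPase of ribosome maturation, had 1276 and 537 counts (−1.38), *Mrpl46*/*Mrps11* was at −1.36, and *Amdhd1*/*Ccdc38*, with an enzyme of histidine breakdown, had 1232 and 530 (−1.35). These 5 stayed called lower on all 3 scales. On the scale of total reads the highest ratios in the same set were not called. They were *Hist1h2bh*/*Hist1h3f* at 0.11, *Srgap2*/*Fam72a* with 1091 and 1154 counts (−0.05), *Chpf*/*Tmem198* with 329 and 340 counts (−0.09), the main *Psmb9*/*Tap1* region at −0.10 and *Zfp319*/*Usb1* at −0.12. The first of these was called higher on both other scales, as were the main *Psmb9*/*Tap1* region and *Zfp319*/*Usb1*. *Srgap2*/*Fam72a* and *Chpf*/*Tmem198* also rose above 0 there, to 0.32 and 0.29 relative to all regions.

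**Figure D5:**
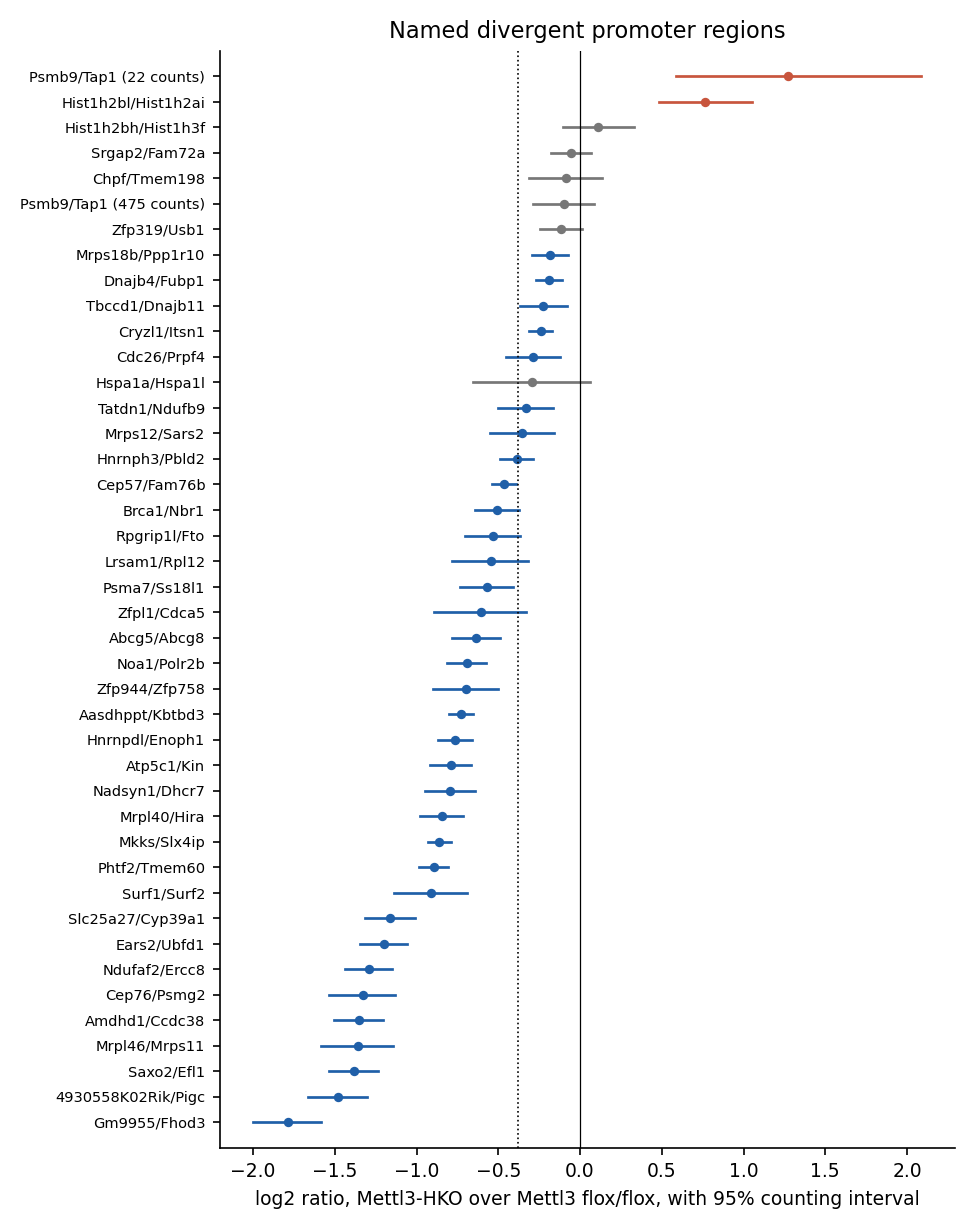
The *Mettl3*-HKO to *Mettl3* flox/flox log2 ratio of the 42 named divergent promoter regions with 95% counting intervals, coloured by the exact binomial call (blue lower, red higher, grey not called). Ratios run from −1.79 at *Gm9955*/*Fhod3* to 1.27 at the weak *Psmb9*/*Tap1* region, and the dotted line is the median of all regions.

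The 25 regions called higher were mostly weak, with median signals of 1.17 RPM in *Mettl3* flox/flox and 2.15 RPM in *Mettl3*-HKO and a median length of 502 bp. A peak in *Mettl3*-HKO alone was present at 10 of them, 9 covered both TSSs and 6 had symbols for both genes. The following were chosen after their values were seen. *Ttc39a* with an unnamed partner had 157 counts in *Mettl3* flox/flox and 417 in *Mettl3*-HKO at its stronger region (1.27) and 73 and 245 at its weaker (1.60). *Tuft1* with an unnamed partner had 72 and 258 counts (1.69). *Fat1*, a giant cadherin, with an unnamed partner had 229 and 465 counts (0.88). *Pdgfa*, a growth factor ligand, had 275 and 407 counts (0.43), and *Cyr61*, a matricellular protein, had 732 and 912 counts (0.18), each with an unnamed partner. *Ifit1bl2*/*Ifit1*, with an interferon-induced gene, had 22 and 51 counts (1.04).

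Several head-to-head pairs that are well known were not members, because the table gives no TSS for 1 of their genes or places the TSSs so that the genes overlap at their 5′ ends. With RefSeq TSSs in place of those of the table, chosen after seeing the data, 1441 regions were divergent outside chromosome 18, and 325 of them (22.6%) were also divergent by the TSSs of the table, or 56% of the 580 members outside that chromosome. Their median log2 ratio was −0.596, with 1215 called lower (84.3%) and 47 higher (3.26%), beside 47.7% and 20.3% of all regions. RefSeq can give several TSSs for a gene, and a pair was taken when any of them met the rule. Regions divergent by RefSeq TSSs alone were not members, so the other promoter regions of the comparisons may include them. *Hadha*/*Hadhb*, which encode the subunits of the mitochondrial trifunctional protein of fatty acid oxidation, had 742 counts in *Mettl3* flox/flox and 435 in *Mettl3*-HKO (−0.90, interval −1.08 to −0.73). *Hspd1*/*Hspe1*, the mitochondrial chaperonin and its co-chaperonin, had 2947 and 2026 counts (−0.68). By 1 combination of their RefSeq TSSs they lie 216 bp apart, while the TSSs nearest to each other overlap. *Atm*/*Npat*, a kinase of the DNA damage response and a coactivator of histone genes, had 956 and 657 counts (−0.68). *Gart*/*Son* had 1557 and 1340 counts (−0.35), and *Nthl1*/*Tsc2* had 72 and 76 (−0.06, not called).

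By the gene ontology terms that the table gives for protein-coding genes, 102 of 747 genes in divergent pairs (13.7%) carried RNA binding, against 10.4% of 9995 genes at other promoter regions. RNA splicing was carried by 2.95% against 1.54%, DNA repair by 3.48% against 2.3%, and centrosome by 4.82% against 2.99%. Plasma membrane was carried by 11.8% against 17%, and signal transduction by 2.95% against 5%. Mitochondrion, with 12.9% against 11.3%, and nucleus, with 35.6% against 35.2%, differed little. These terms were chosen after their shares were seen, and no test of enrichment was made.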

How the data were processed

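ATAC-seq of 1 *Mettl3* flox/flox and 1 *Mettl3*-HKO liver library was analysed, and samples were grouped by their labels. The authors trimmed adaptors with skewer, aligned reads with BWA, filtered them at a mapping quality of 13 for proper pairs outside the mitochondrial genome, called peaks with MACS2 per library with duplicates kept, and merged them on GRCm38. How reads were counted on regions, and whether ends were shifted for Tn5, is not given in the sources used here. Per region, the authors deposited raw counts of each library, RPM, fold enrichment (a ratio of read density in the region to that in the genome), their own log2 ratio, which was not used, and the closest TSS. The RPM values imply totals of 52826202 and 58038305 reads.

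Of 74821 rows, 5272 repeated a region and were dropped. Starts were converted to count from 1. A TSS is given only for genes named as closest to a region, and these 27433 genes gave 572 divergent TSS pairs. Symbols were given for 53.1% of genes, and names that a spreadsheet had turned into dates were left blank. Of the 1044 genes at members, 732 got a biotype from RefSeq by symbol, 15 by older symbol and 108 by a start within 100 bp. Log2 ratios were recomputed from counts with 1 read added to each. Since each group is 1 library, nothing could be tested across mice. The counts of a region were set against the totals by an exact binomial test (two-sided, conditional on their sum), and p-values were adjusted by Benjamini-Hochberg over the 69549 regions. Intervals (95%) were computed by Clopper-Pearson from the share of *Mettl3*-HKO counts. They cover counting error only, and duplicate reads are not independent molecules.

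Members and lists were chosen with earlier results of these data known. Named pairs are known head-to-head pairs, the 5 highest and 5 lowest ratios among promoters in the upper 50% by mean RPM, the 5 with the most RPM in *Mettl3* flox/flox, and up to 3 per list with the most RPM, all with symbols for both genes. A few regions are not reported here. Scripts were tested on simulated data. Scaling, reads added, signal filters, TSS distance, window and the source of TSSs were varied. Scripts ran in Python 3.11.15 with scipy 1.17.1, pandas 2.3.3 and numpy 2.4.6, and figures were drawn with matplotlib 3.10.9.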

Additional observations from a re-analysis of the deposited data

How the results depend on the processing

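The scale decided most. Centred on the median of all regions, the median log2 ratio was −0.199 at divergent and −0.186 at other promoter regions, with 288 divergent regions called lower and 90 higher. Centred on the strongest 10% of promoter regions, the medians were 0.070 and 0.083, with 134 called lower and 207 higher. With 10 reads added, the median of other promoters was −0.549, and with 0.5 reads added the medians were −0.577 and −0.564. The calls rest on counts with no reads added. In the upper 50% of mean RPM over all regions it was −0.608, the difference between the classes was 0.008, 13 divergent regions were called higher and the signal ratio was 1.49. With a peak in both libraries, the median of other promoters was −0.582, 15 divergent regions were called higher and the signal ratio was 1.56. The difference between the classes was 0.031 within bins of mean RPM, and further below 0 for regions covering both TSSs (−0.040), pairs of 2 protein-coding genes (−0.037) and RefSeq TSSs (−0.039). Calls of higher signal numbered 13 for TSSs at most 300 bp apart, 12 with the centre within 500 bp and 9 for regions covering both TSSs. The signal ratio was 2.37 for regions covering both TSSs, 2.13 for the strongest region of each pair, 1.57 against other promoters with 2 or more TSSs and 1.51 by fold enrichment. Pairs of 2 protein-coding genes had 266 regions, with 225 lower and 5 higher. By size in place of the test, 73 were 2-fold or more lower and 11 higher, and 287 were 1.5-fold or more lower. RefSeq TSSs gave 1441 regions, with 1215 lower and 47 higher. Apart from the scale itself and the construction of the subsets, the cause of these changes was not tested.

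Of the 42 named regions, 12 changed sign when centred on the median of all regions. *Tbccd1*/*Dnajb11* was then at 0.15, *Srgap2*/*Fam72a* at 0.32, *Dnajb4*/*Fubp1* and *Mrps18b*/*Ppp1r10* at 0.19, *Zfp319*/*Usb1* at 0.26, *Tatdn1*/*Ndufb9* at 0.04, *Chpf*/*Tmem198* at 0.29, *Cryzl1*/*Itsn1* at 0.14, *Cdc26*/*Prpf4* at 0.09, *Mrps12*/*Sars2* at 0.02, *Hspa1a*/*Hspa1l* at 0.08 and the main *Psmb9*/*Tap1* region at 0.28. Calls changed with the sign as well. *Dnajb4*/*Fubp1* and *Mrps18b*/*Ppp1r10* went from called lower to called higher, and *Zfp319*/*Usb1* and the main *Psmb9*/*Tap1* region were newly called higher. Of the regions that kept their sign, *Brca1*/*Nbr1*, *Hnrnph3*/*Pbld2*, *Zfpl1*/*Cdca5*, *Rpgrip1l*/*Fto* and *Lrsam1*/*Rpl12* were no longer called, and *Hist1h2bh*/*Hist1h3f* was newly called. Centred on the strongest 10% of promoter regions, 20 changed sign. The 12 regions listed first were then at 0.42, 0.59, 0.46, 0.46, 0.53, 0.31, 0.56, 0.40, 0.36, 0.29, 0.35 and 0.55 in the same order, and *Brca1*/*Nbr1* was at 0.14, *Hnrnph3*/*Pbld2* at 0.26, *Abcg5*/*Abcg8* at 0.01, *Zfpl1*/*Cdca5* at 0.04, *Psma7*/*Ss18l1* at 0.08, *Cep57*/*Fam76b* at 0.18, *Rpgrip1l*/*Fto* at 0.11 and *Lrsam1*/*Rpl12* at 0.10. Of the regions that kept their sign on that scale, *Noa1*/*Polr2b*, *Nadsyn1*/*Dhcr7* and *Zfp944*/*Zfp758* were no longer called. Adding 0.5 or 10 reads changed the direction of none of the 42.

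With 1 library per group no replicate could be left out, and no paired analysis was made. Depth limits the weak regions most, as for *Psmb9*/*Tap1* with 22 counts, whose interval ran from 0.59 to 2.09.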
